A study of Bos taurus with 9 samples.

Results

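The 59 genes described here are nuclear genes for subunits of the oxidative phosphorylation (OXPHOS) system, out of 24616 Ensembl genes with a value in rectal tissue of each of 9 beef steers. They were chosen by symbol and not by a cut on their values, though with earlier results of these data known: a name that starts with NDUF, UQCR, ATP5 or COX4 to COX8, or that is SDHA, SDHB, SDHC, SDHD or CYC1, among 1998 genes whose names could be read. Of the members, 27 belong to complex I, 4 to complex II, 8 to complex III, 7 to complex IV and 12 to complex V, and COX7A2L was kept apart as a factor that joins complexes III and IV. All 59 passed the filter on low values (0.5 CPM or more in 4 steers or more, where CPM is the read count scaled to the total of reads on genes in its library), as did 15410 genes in all. The 1998 named genes are the readable part of a list that the paper describes as its genes of greatest FPKM, a value scaled to gene length. Mean levels of the members ran from 3.28 CPM (COX7B) to 609.5 CPM (ATP5B). Other nuclear subunits were not analysed here.

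OXPHOS takes place at the inner membrane of the mitochondrion. Complex I takes electrons from NADH and complex II from succinate, both pass them through ubiquinone to complex III, and cytochrome c carries them on to complex IV, which reduces oxygen. Complexes I, III and IV pump protons, and complex V, the ATP synthase, makes ATP from their return. Most subunits are encoded in the nucleus and a few core ones in mitochondrial DNA (mtDNA), and colonocytes, which oxidise short-chain fatty acids, are known as cells with high oxidative metabolism.

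The steers were British x Continental feedlot animals on a barley-grain finishing diet, with natural infection and no experimental inoculation or other treatment. The 5 super-shedders (SS, steers 274, 287, 294, 299 and 310) had shed E. coli O157 in high numbers when first sampled. Only for steer 310 does the paper give a high count at slaughter. It lists the other SS as positive by an immunomagnetic assay a day earlier. The 4 non-shedders (NS, steers 108, 152, 165 and 242) were pen-mates that tested negative for E. coli O157. RNA was sequenced from whole-tissue biopsies taken just proximal to the recto-anal junction (RAJ), 1 library per steer, so in these bulk samples fewer cells of a type and less RNA per cell cannot be told apart.

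Libraries held 5412523 (steer 274) to 12278503 (steer 108) reads on genes, and 1 read was worth 0.185 and 0.0814 CPM in these 2 libraries. Counts per member and steer ran from 7 reads (COX7B in steer 274) to 10035 (ATP5B in steer 108), and COX7B was the only member with fewer than 35 reads in any steer. The biopsies differed widely in epithelial content, measured here as the mean log2(CPM + 0.5) of 8 pan-epithelial genes (the keratins KRT8, KRT18, KRT19 and KRT20, the adhesion proteins EPCAM, CDH1 and CDH17, and the lectin LGALS4). This epithelial score was 3.04 in SS 294, 6.08 in NS 242, 6.25 in SS 274 and 8.07 in SS 299. In the other 5 steers it lay between 9.03 (NS 165) and 9.45 (SS 287). Both groups thus held low and high scores. In steer 294 the 8 epithelial genes summed to 67.4 CPM, against 607 to 6590.3 CPM in the other steers, so little epithelium was measured in that biopsy. Its 11 smooth muscle markers summed to 56636 CPM, against 484 to 29200.5 CPM in the others. The leukocyte score was 8.47 in steer 242 and 5.06 to 7.01 in the other steers.

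The summed level of the 59 genes followed nearly the same order of steers. It was 3232 CPM in steer 294, 3574 in steer 274, 4045 in steer 242 and 4234 in steer 299. It was 5239 CPM in steer 165, 6057 in steer 310, 6074 in steer 152, 6390 in steer 108 and 6777 in steer 287. The 4 steers with the lowest sums were the 4 with the lowest epithelial scores, and the sums made up 0.323% to 0.678% of all reads on genes. By group the mean sum was 5437 CPM in NS (SD 1047, n = 4) and 4775 CPM in SS (SD 1563, n = 5), with widely overlapping ranges.

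Most members shared this order. Steer 287 had the highest value of 35 of the 59 genes, and steers 108 and 152 of 9 and 8 more. The lowest value fell in steer 294 for 33 genes, in steer 274 for 16 and in steer 242 for 7. From the lowest to the highest steer a member changed by a median of 2.31-fold, with a range of 1.49-fold (NDUFB8) to 5.89-fold (COX7B, with few reads), and 40 genes changed by more than 2-fold. The SD over 9 steers of log2(CPM + 0.5) had a median of 0.42 over the members and 0.50 over all genes tested. The plot of single genes by steer shows that high and low values of ATP5B, ATP5G3, CYC1 and COX7A2 occurred in both groups.

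**Figure D1:**
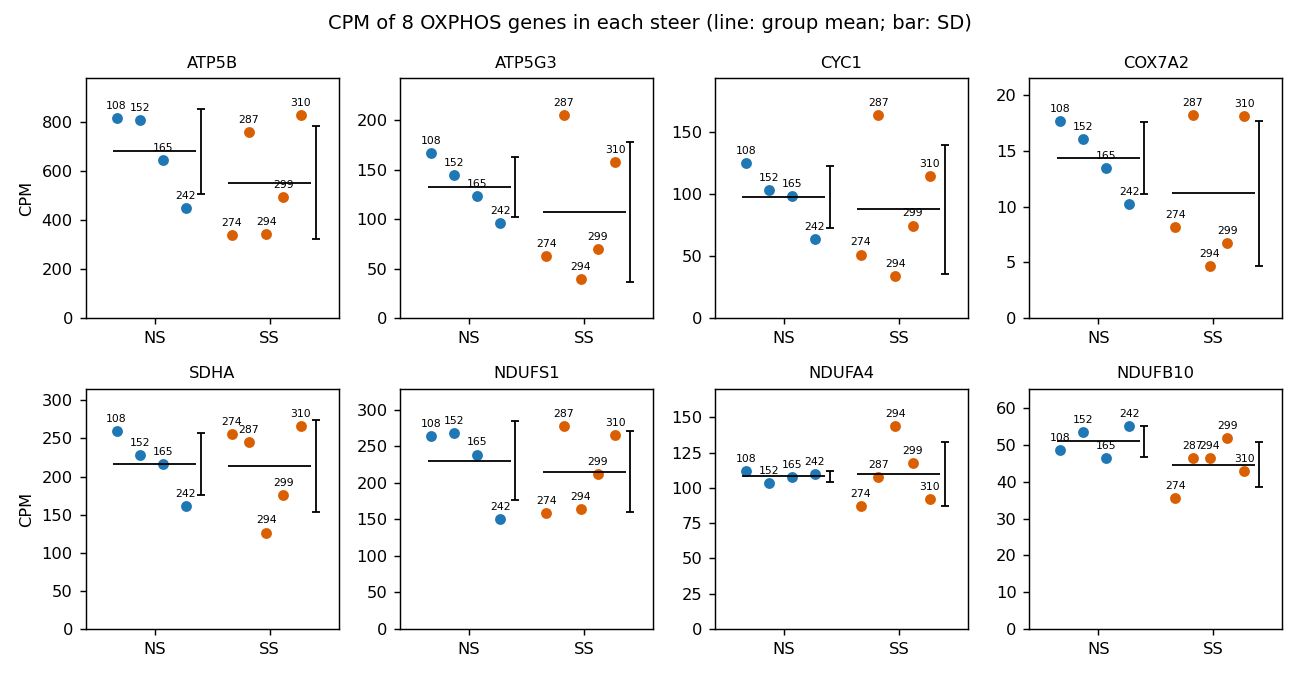
CPM of 8 nuclear OXPHOS genes in each of 4 NS (blue) and 5 SS (orange); every point is 1 steer with its number, the line is the group mean and the bar its SD. Among SS, ATP5B was lowest in steer 274 (338 CPM) and highest in steer 310 (829 CPM), whereas NDUFA4 was highest in steer 294 (144 CPM).

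The first comparison asked whether nuclear OXPHOS genes differed between SS and NS. No difference passed the test. With limma on log2(CPM + 0.5) and Benjamini-Hochberg adjustment over all 15410 genes, 0 of the 59 had an adjusted p below 0.05, and over all genes 0% were called. None of the 59 reached an unadjusted p below 0.05 either, where 3.6% of all genes did so with lower values in SS and 0.357% with higher values. In no member did every SS lie below every NS (2.1% of all genes) or above it (0.162%). edgeR and DESeq2 on the recovered read counts also called 0 members.

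Point estimates were mostly below 0, and those of all genes were so in a smaller share. The SS minus NS log2 difference was negative for 53 of 59 members, against 9990 of 15410 genes, and positive for 6 members. Its median was -0.23 over the members and -0.13 over all genes tested. After median-of-ratios scaling, which moved the median over all genes to 0.0082, the members' median was -0.08 with 39 negative and 20 positive. With edgeR and DESeq2 it was -0.061 and -0.037, where the medians over all genes were 0.025 and 0.049. By complex the medians as deposited were -0.19 (I), -0.23 (II), -0.25 (III), -0.31 (IV) and -0.26 (V). Without steers 274 and 294, the SS with the shallowest library and the SS with the lowest epithelial score, the members' median was 0.035 and 38 of 59 were positive. Over all genes the median of that fit was -0.076. Leaving out single steers moved the members' median from -0.39 (without 287) to -0.10 (without 294).

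The extremes of this comparison were small beside the spread. ATP5G3, 1 of several genes for subunit c of the rotor ring of the ATP synthase, had 167, 144, 123 and 95.9 CPM in NS 108, 152, 165 and 242. It had 63.2, 205, 39.4, 69.6 and 158 CPM in SS 274, 287, 294, 299 and 310. The lowest 3 values and the highest of all were SS, and the log2 difference of -0.54 ± 0.46 (SE) did not pass the test (limma, adjusted p = 0.931). It was -0.84 without steer 287, -0.25 without steer 294, -0.18 with edgeR and -0.16 with DESeq2. COX6B1 and COX7A2, subunits of cytochrome c oxidase, followed with -0.53 ± 0.38 and -0.51 ± 0.42 (SE), which became -0.23 and -0.24 with edgeR and -0.21 for both with DESeq2. The highest estimates were 0.089 ± 0.46 for COX7B, a subunit of complex IV, 0.053 ± 0.27 for UQCRB, the complex III subunit next to cytochrome b, and 0.044 ± 0.19 for NDUFB8, an accessory subunit of complex I. With edgeR and DESeq2 the estimates were 0.42 and 0.44 for COX7B, 0.15 and 0.18 for UQCRB, and 0.18 and 0.21 for NDUFB8.

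With the epithelial score in the same model, the SS minus NS median was -0.036 over the members and -0.11 over all genes. Of the 59 members 24 were positive, against 5401 of 15410 genes. Again 0 members were called (0% of all genes), and 0 had an unadjusted p below 0.05, against 3.76% of all genes with lower and 0.681% with higher values in SS. ATP5B, the catalytic beta subunit of the synthase, had a difference of -0.36 ± 0.33 (SE) for group alone and -0.12 beside the score. For group alone it ranged from -0.55 (without steer 242) to -0.21 (without steer 274) with 1 steer left out, and was -0.19 with edgeR and -0.17 with DESeq2. The epithelial markers themselves had a median SS minus NS difference of -1.14 (0 of 8 called).

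**Figure D2:**
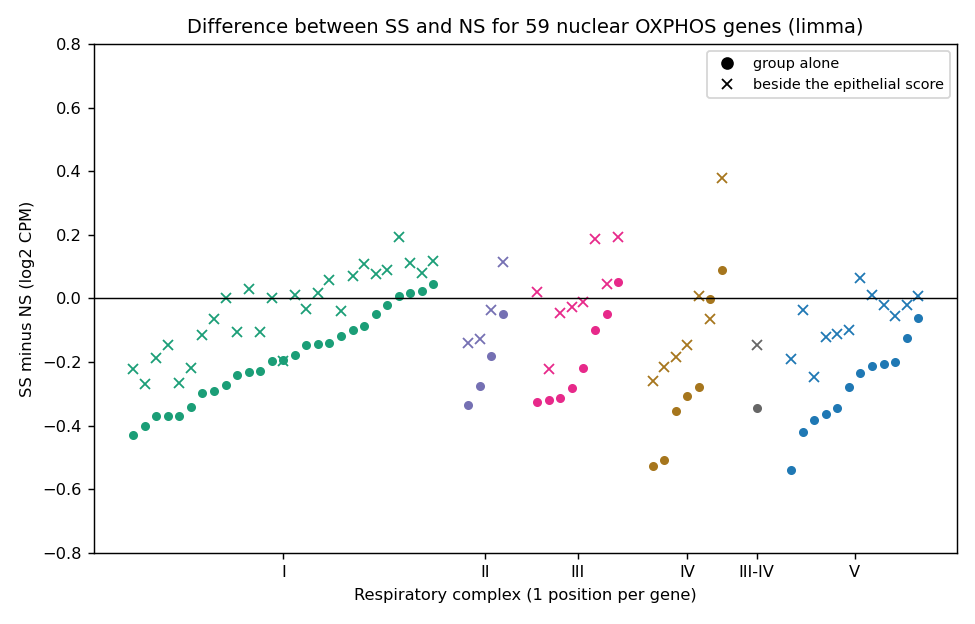
SS minus NS log2 difference of each of the 59 members (vertical axis, log2 CPM), grouped by respiratory complex and ordered by size (horizontal axis), from limma with group alone (filled points) and with the epithelial score in the model (crosses). Filled points run from -0.54 to 0.089; the crosses lie higher for most genes, with a median of -0.036.

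The second comparison asked how each member varied with the epithelial content of the biopsy. Of the 59 genes, 40 were higher in epithelium-rich biopsies by the test, 19 did not pass it, and none was called lower. The slope of log2(CPM + 0.5) on the score over all 9 steers was positive for 58 of 59 members, against 53.4% of all genes. For 40 members it was called higher with the score (limma, adjusted p below 0.05), against 15.1% of all genes, and 0 were called lower, against 7.83%. At an unadjusted p below 0.05, 47 members were higher with the score and 0 lower, against 21.7% and 15.3% of all genes. The median slope was 0.16 log2 units per unit of the score over the members and 0.012 over all genes. The score uses none of the members, but all genes share the same 9 libraries.

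The count depends on the steers. It was 24 without NS 108 and 24 without SS 310, where 11.8% and 11.5% of all genes were called higher, and lay between 27 and 42 when any other steer was left out (27 without 287 or 294 and 42 without 242, against 12.3%, 9.99% and 22.1% of all genes). Of the 40 members, 19 kept the call in every one of these 9 fits, and 57 of 59 kept a positive slope in all of them, the exceptions being NDUFA4 and NDUFB10. The share of all genes that kept a call in every fit was not computed, so these 19 have no background beside them. Leaving out a single steer moved the slope of 8 called members by over 1.5 times, in each case steer 294. Without steers 274 and 294 together the count was 16, against 8.54% of all genes. Without the 3 steers of lowest score (242, 274 and 294) it was 0, against 0.0202% of all genes, so hardly any gene was called in that fit. The median slope there was 0.48, with 36 members higher at an unadjusted p below 0.05, against 9.36% of all genes. edgeR called 25 members higher, against 12.7% of all genes, and DESeq2 31, against 16.0%. With SS and NS as a term in the model 32 members were called higher, against 12.7% of all genes.

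The mean log2 level of the members correlated with the score over the 9 steers with Pearson r = 0.90 and Spearman rho = 0.92. Without steers 242 and 294, the 2 farthest from the median score, r was 0.92 and rho 0.86. By complex, r was 0.90 for I, 0.92 for II, 0.90 for III, 0.87 for IV and 0.89 for V. These are descriptions over points that share libraries and scaling. The fibroblast score ran the other way (r = -0.83 with the epithelial score), and the part of single cell types in the slopes was not tested.

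**Figure D3:**
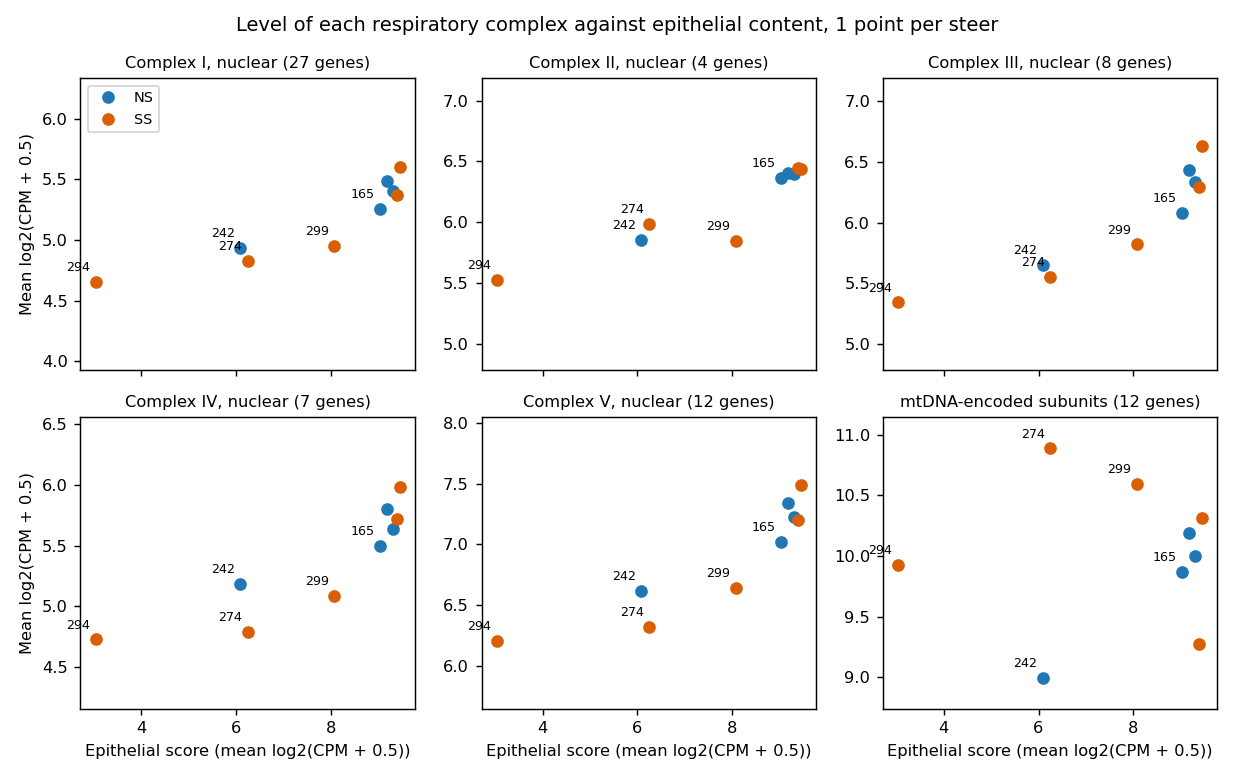
Mean log2(CPM + 0.5) of the nuclear genes of each complex and of the 12 mtDNA-encoded subunits (vertical axes, all spanning the same 2.4 log2 units) against the epithelial score of the biopsy (horizontal axis), 1 point per steer in blue for NS and orange for SS; the 4 unlabelled steers at the right are 108, 152, 310 and 287. In all 5 nuclear panels steer 294 is lowest and the steers at the right are highest; in the mtDNA panel steer 274 is highest and steer 242 lowest.

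In complex I, the entry point for electrons from NADH, 16 of 27 genes were called higher with the score and the median slope was 0.14. NDUFV1, the flavoprotein that binds NADH, was at 77.8, 52.7, 56.7 and 43.4 CPM in NS 108, 152, 165 and 242. In SS 274, 287, 294, 299 and 310 it was at 36.8, 90.4, 26.6, 37.9 and 75.1 CPM. Steer 294 was lowest and steer 287 highest, with both groups mixed between, and the slope was 0.22 ± 0.050 (SE, limma, adjusted p = 0.0114). The call was lost without steer 294 (adjusted p = 0.0533).

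Of the other core subunits of complex I, NDUFS3 had a slope of 0.20 ± 0.042 (SE, limma, adjusted p = 0.00880). NDUFS1, an iron-sulphur protein, was lowest in steer 242 (150.8 CPM) and highest in steer 287 (278 CPM), with a slope of 0.14 ± 0.036 (SE). Both kept the call in all 9 fits with 1 steer left out, and without steer 294 the slope of NDUFS1 was 0.25. NDUFS7, an iron-sulphur protein that hands electrons to ubiquinone, had a slope of 0.17 ± 0.048 (SE), or 0.11 without steer 294, and lost the call without steer 108, 287, 294 or 310. Of the other called complex I genes, NDUFA11 kept the call in all 9 fits, and the rest lost it without at least 1 steer.

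The complex I genes that were not called included accessory subunits with the flattest profiles. NDUFB10 was at 48.5, 53.7, 46.4 and 55.2 CPM in NS 108, 152, 165 and 242. In SS 274, 287, 294, 299 and 310 it was at 35.5, 46.6, 46.4, 52.0 and 43.0 CPM. Its slope was 0.011 ± 0.038 (SE, limma, adjusted p = 0.857), and its sign turned under median-of-ratios scaling, with DESeq2 and without steer 274. NDUFS4, an accessory subunit of the electron-input arm, ranged from 28.2 to 44.5 CPM with a slope of 0.045 ± 0.039 (SE). With 1 steer left out that slope ranged from 0.031 to 0.094. NDUFB8 had the smallest fold between its lowest and highest steer, 22.7 to 33.9 CPM. With the mean of the other 58 members, NDUFB10 correlated at r = 0.18 over the 9 steers, where ATP5F1, the member most like the rest, reached 0.99.

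Complex II, succinate dehydrogenase, is also an enzyme of the tricarboxylic acid cycle and has no mtDNA-encoded subunit. All 4 genes were called higher with the score, with slopes of 0.13 to 0.18. SDHA, the flavoprotein that oxidises succinate, was at 260.3, 228, 216 and 162 CPM in NS 108, 152, 165 and 242. In SS 274, 287, 294, 299 and 310 it was at 256, 246, 127, 175 and 267 CPM. Steer 274 thus had a high SDHA level beside a low epithelial score, and the slope was 0.13 ± 0.041 (SE, limma, adjusted p = 0.0426). The iron-sulphur protein SDHB and the membrane anchor SDHC had slopes of 0.13 ± 0.034 and 0.14 ± 0.043 (SE). Each of these genes lost its call without steer 108, 294 or 310, SDHA and SDHC also without 152, 165 or 287 and SDHC without 274, whereas SDHD, the other anchor, kept it in all 9 fits (slope 0.18 ± 0.043, SE, and 0.27 without steer 294).

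In complex III, which passes electrons from ubiquinol to cytochrome c, 5 of 8 genes were called and all 5 kept the call when any single steer was left out. CYC1, cytochrome c1, was at 125, 103, 97.9 and 63.9 CPM in NS 108, 152, 165 and 242. It was at 51.2, 163, 34.2, 74.5 and 114 CPM in SS 274, 287, 294, 299 and 310. The 4 lowest values were those of the 4 steers with the lowest epithelial scores, and the slope of 0.30 ± 0.042 (SE) had the lowest adjusted p of the 59 members (limma, adjusted p = 0.000812). UQCRC1, core protein 1, had a slope of 0.23 ± 0.037 (SE, limma, adjusted p = 0.00158). That of UQCRFS1, the Rieske iron-sulphur protein, was 0.18 ± 0.045 (SE, limma, adjusted p = 0.0186), and 0.30 without steer 294. The small subunits UQCRQ and UQCR11 were also called, and UQCRB, UQCRH (the hinge protein) and UQCR10 were not.

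In complex IV, cytochrome c oxidase, 5 of 7 nuclear genes were called. COX5A was at 137, 124, 86.8 and 67.7 CPM in NS 108, 152, 165 and 242. It was at 59.9, 143, 44.3, 83.8 and 119 CPM in SS 274, 287, 294, 299 and 310. Its slope was 0.25 ± 0.040 (SE, limma, adjusted p = 0.00191), and COX5A and COX4I1, the widely expressed form of subunit 4 (0.16 ± 0.041, SE), kept the call in all 9 fits. COX7A2, the form of subunit 7A found outside heart and skeletal muscle, had a slope of 0.27 ± 0.061 and COX6B1 of 0.25 ± 0.056 (SE), and both lost the call without steer 294 (limma, adjusted p = 0.0839 and 0.0684). COX5B (0.15 ± 0.045, SE) kept it in 2 of the 9 fits, those without steer 242 or 299. COX7B had a slope of 0.23 ± 0.079 (SE, limma, adjusted p = 0.0633) on counts of 7 to 90 reads. With 1 steer left out its slope ranged from 0.18 to 0.43, and it was called only without steer 294.

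NDUFA4 had the profile least like those of the other members. Its name places it in complex I, but the protein is now assigned to complex IV. It was at 112, 103, 107 and 110.0 CPM in NS 108, 152, 165 and 242. In SS 274, 287, 294, 299 and 310 it was at 86.8, 108, 144, 118 and 92.2 CPM, so the highest value fell in steer 294, where 33 members had their lowest. It was the only member with a negative slope on the epithelial score, -0.048 ± 0.036 (SE, limma, adjusted p = 0.36), and without steer 294 the slope was 0.022. Its correlation with the mean of the other members was r = -0.34, the lowest of the 59.

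COX7A2L, a relative of COX7A2 that joins complexes III and IV in a supercomplex, was at 131, 132, 104 and 107 CPM in NS 108, 152, 165 and 242. It was at 81.1, 139, 54.1, 82.1 and 134 CPM in SS 274, 287, 294, 299 and 310. The 3 lowest and the 2 highest values were all SS, with the NS between them. The slope was 0.18 ± 0.040 (SE, limma, adjusted p = 0.0101), and it was not called without steer 294 (adjusted p = 0.141).

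In complex V, the ATP synthase, 9 of 12 genes were called, and 8 of them in all 9 fits with 1 steer left out. ATP5B was at 817, 809, 646 and 449 CPM in NS 108, 152, 165 and 242. It was at 338, 760, 342, 495 and 829 CPM in SS 274, 287, 294, 299 and 310. Steers 310 and 108 were highest and steers 274 and 294 lowest, and the slope was 0.22 ± 0.045 (SE, limma, adjusted p = 0.00811).

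ATP5A1, the alpha subunit, and ATP5C1, the gamma subunit of the central shaft, had slopes of 0.21 ± 0.044 and 0.16 ± 0.036 (SE). The steepest slopes of all 59 members belonged to genes for subunit c, 0.33 ± 0.064 for ATP5G1 and 0.31 ± 0.055 for ATP5G3 (SE, limma, adjusted p = 0.00514 and 0.00324). ATP5G1 was at 52.0, 39.5, 40.1 and 22.5 CPM in NS 108, 152, 165 and 242. In SS 274, 287, 294, 299 and 310 it was at 14.4, 67.0, 13.3, 22.0 and 53.8 CPM, a 5.02-fold range. ATP5H and ATP5J of the peripheral stalk and ATP5L (subunit g) were not called. Whether slopes differed between complexes or between subunits was not tested.

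**Figure D4:**
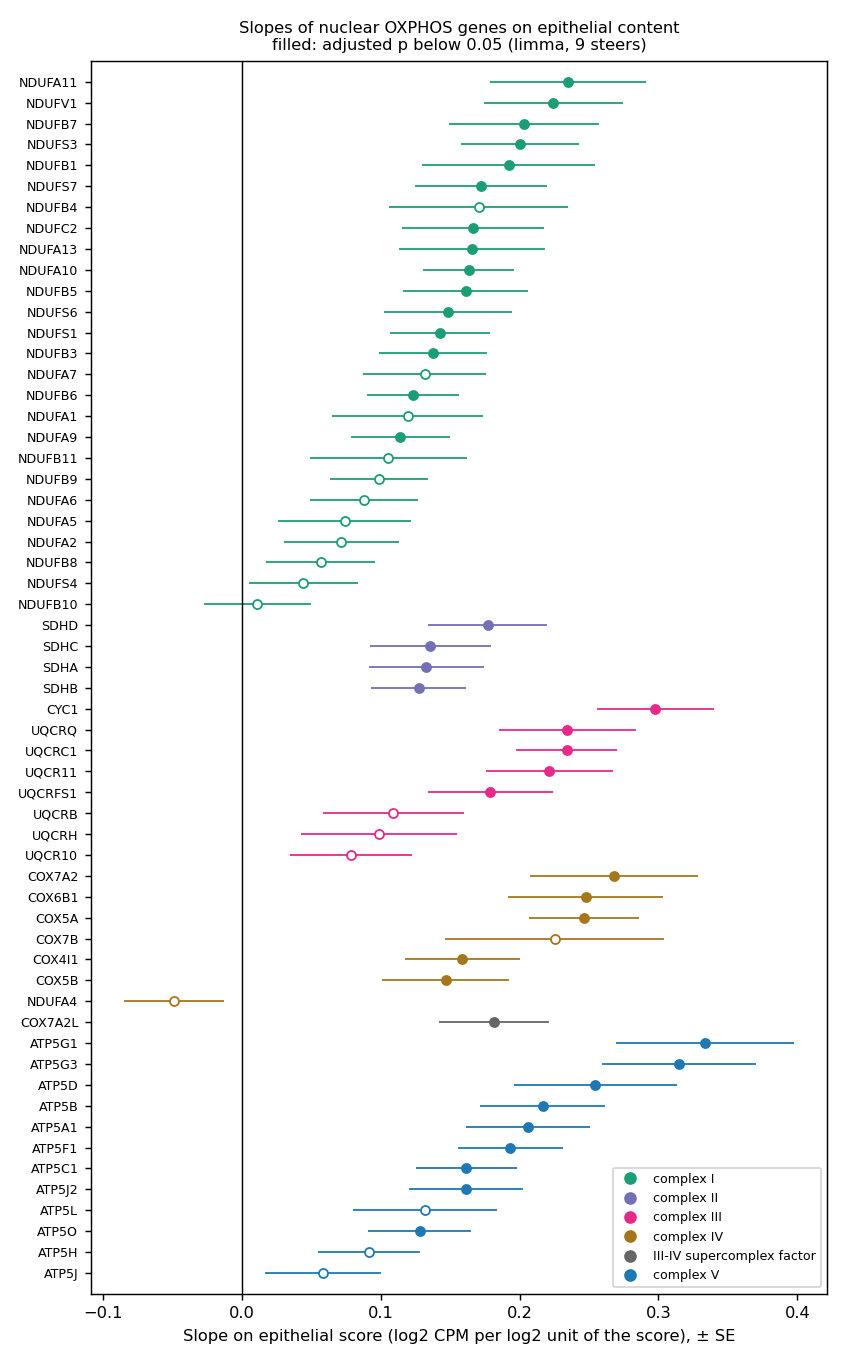
Slope of 58 of the 59 members on the epithelial score (horizontal axis, log2 CPM per log2 unit of the score, ± SE, 9 steers), with genes on the vertical axis grouped and coloured by complex; filled points have an adjusted p below 0.05. ATP5G1, ATP5G3 and CYC1 reach 0.30 to 0.33, and NDUFA4 alone lies left of 0.

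Smooth muscle also varied widely between biopsies, as fibroblast markers did (7.64 to 10.7), and its score (mean log2 of 11 marker genes from 4.99 in steer 274 to 11.3 in steer 294) gave no calls. On that score 0 members were called, against 1.21% of all genes, and 17 of 59 slopes were positive, against 8002 of 15410 genes. The median slope was -0.036, -0.16 without steer 274 and 0.053 without steer 294, so its direction was not stable. NDUFA4 was the 1 member with an unadjusted p below 0.05, against 9.08% of all genes, at a slope of 0.083 (limma, unadjusted p = 0.0497, adjusted p = 0.548). Without steer 274, the steer with the lowest muscle score, 56 slopes were negative, 22 of them at an unadjusted p below 0.05 against 9.84% of all genes, and again 0 members were called. The mean level of the members correlated with the muscle score at r = -0.16 and rho = -0.23, and at r = -0.50 and rho = -0.36 without steers 274 and 287.

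The subunits encoded in mtDNA, which join these same complexes, varied in another order of steers. Their summed level was 24730 CPM in steer 294, 17473 in steer 242, 57730 in steer 274 and 42955 in steer 299. It was 33101 CPM in steer 165, 40424 in steer 108, 43889 in steer 152, 26063 in steer 310 and 36515 in steer 287. Steer 274 had the highest mtDNA sum and the second lowest nuclear sum. Its library was the shallowest, and the paper reports for it the lowest share of mapped reads. Whether this bears on the sums was not tested. The ratio of the sums, mtDNA over nuclear, was lowest in SS 310 (4.30) and NS 242 (4.32) and highest in SS 274 (16.2) and SS 299 (10.1).

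Of the 12 mtDNA genes 0 were called on the epithelial score (limma; 15.1% of all genes were called higher and 7.83% lower) and 0 had an unadjusted p below 0.05 (21.7% and 15.3% of all genes), with a median slope of 0.004, and MT-CO1 and MT-CO2, the catalytic subunits of complex IV, had slopes of 0.12 ± 0.12 and 0.14 ± 0.094 (SE). The mean mtDNA level correlated with the score at r = 0.032 and rho = 0.083 over 9 steers and at r = -0.75 and rho = -0.54 without steers 242 and 294. Between SS and NS, all 12 had a positive difference, with a median of 0.40, where 5420 of 15410 genes were positive with a median of -0.13, and 0 were called (0% of all genes). MT-ND4L, singled out after its values were seen and overlapping MT-ND4 on the mitochondrial genome, was at 0.81 ± 0.31 (SE, limma, unadjusted p = 0.0269, adjusted p = 0.928). mtDNA transcripts took 1.75% to 5.77% of reads on genes, and with CPM recomputed without them the count of nuclear members called on the epithelial score was 41, against 15.4% of all genes.

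**Figure D5:**
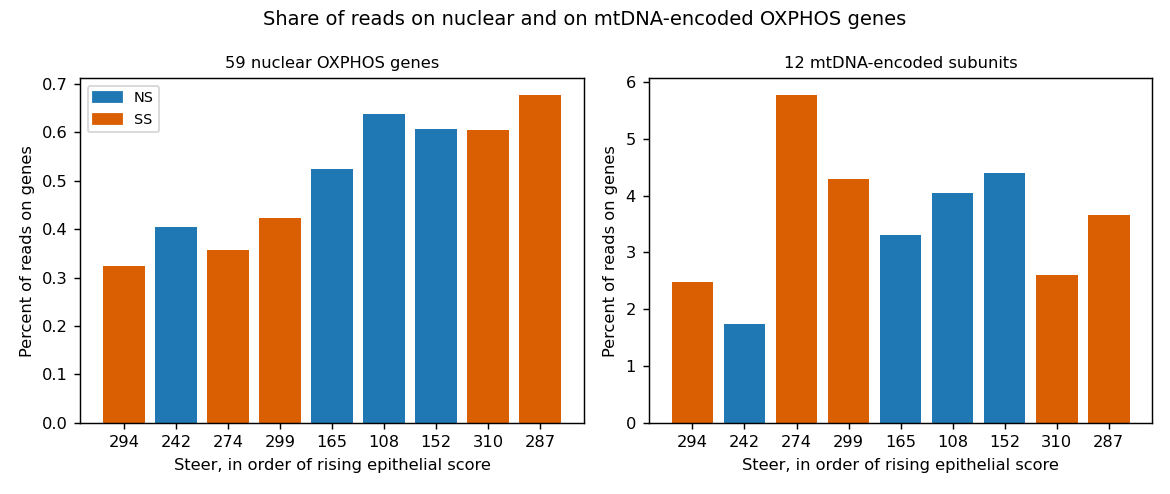
Percent of reads on genes (vertical axes, from 0) that fell on the 59 nuclear OXPHOS genes (left) and on 12 mtDNA-encoded subunits (right), with steers from left to right by rising epithelial score, NS in blue and SS in orange. The nuclear share rises from 0.323% in steer 294 to 0.678% in steer 287; the mtDNA share is highest in steer 274 (5.77%).

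Other genes of energy metabolism were described as lists, beside the 15.1% of all genes called higher with the epithelial score and the 7.83% called lower. Of 15 genes of the tricarboxylic acid cycle and pyruvate dehydrogenase, which feed NADH and succinate into the chain, 10 were called higher with the epithelial score and 0 lower, with a median slope of 0.13. With SS and NS as a term in the model 6 of the 15 were called higher, against 12.7% of all genes. SUCLG2, a subunit of succinyl-CoA ligase, had a slope of 0.21 ± 0.048 and CS, citrate synthase, of 0.22 ± 0.044 (SE). Of 10 assembly and stability factors 6 were called higher, or 5 with SS and NS as a term. CHCHD2 was among the 6 (0.26 ± 0.043, SE), whereas LRPPRC, which stabilises mitochondrial mRNAs, was not (0.094 ± 0.037, SE). Of 8 genes of beta-oxidation and the electron transfer flavoprotein 0 were called by limma and 6 slopes were positive. At an unadjusted p below 0.05, 3 were higher, against 21.7% of all genes. HADHA and HADHB, the trifunctional protein of fatty acid oxidation, had slopes of -0.036 and 0.074. Only 8 of the 15 genes planned for this list could be named, so CPT1A, CPT2, ACADM, ACADS and others were not examined. Of 12 glycolytic genes 2 were called higher, and 10 slopes were positive with a median of 0.088. ALDOA and GAPDH had slopes of 0.030 and 0.023. Mean levels correlated with the epithelial score at r = 0.92 for the tricarboxylic acid list, 0.94 for assembly factors, 0.45 for beta-oxidation and 0.90 for glycolysis. The OXPHOS members were at 0.90. Without steers 242 and 294 the 4 lists were at 0.94, 0.92, -0.56 and 0.66, and the members at 0.92.

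Among 8 carriers, porins and regulators 4 were called higher and 0 lower. With SS and NS as a term in the model 3 were called higher, against 12.7% of all genes. The mean level of this list correlated with the epithelial score at r = 0.96. The ADP/ATP carriers, which exchange the product of complex V for ADP across the inner membrane, had unlike profiles. SLC25A5 was at 386, 451, 423 and 125 CPM in NS 108, 152, 165 and 242. In SS 274, 287, 294, 299 and 310 it was at 68.5, 660, 12.8, 156 and 392 CPM, and its slope was 0.79 ± 0.060 (SE, limma, adjusted p = 1.1e-05), a larger estimate than that of any of the 59 members, though this difference was not tested. SLC25A6 ranged from 316 to 501 CPM with a slope of 0.063 ± 0.034 (SE, adjusted p = 0.208). SLC25A4, the form known from heart and skeletal muscle and added here after its values were seen, had a slope of -0.26 ± 0.092 (SE, adjusted p = 0.0701) and its 2 highest values in steers 274 (138 CPM) and 294 (118 CPM). Between SS and NS, limma called 0 genes of these lists (0% of all genes), and 2 glycolytic genes were lower in SS at an unadjusted p below 0.05 (3.6% of all genes).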

How the data were processed

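The authors made stranded, rRNA-depleted paired-end libraries of total RNA, 1 per steer, mapped reads with TopHat2 to UMD3.1 with Ensembl gene models, and deposited CPM for 24616 genes. The submitters' processing notes also name HTSeq and edgeR. Nothing used here states how reads shared with near-identical gene copies or overlapping genes were counted. In each library 100% of values were whole multiples of 1 read (tolerance 0.01 reads), so reads could be recovered for count tests. A count of 0 allows up to 3 reads, 0.244 to 0.554 CPM, for counting error only.

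Groups came from the sample titles. limma 3.58.1 (R 4.3.3; eBayes with trend, Benjamini-Hochberg adjustment) was run on log2(CPM + 0.5) for the 15410 genes that reached 0.5 CPM in 4 or more of 9 steers, with group, epithelial score, both, or smooth muscle score as terms. A fold on this scale understates changes of low genes, and p-values measure the spread between steers. Alternatives were edgeR 4.0.16 and DESeq2 1.42.0 on recovered counts, pseudocounts of 0.1 and 1, no filter, other scalings, covariates and omission of each steer; omission of several steers together, omission of each steer from the model with both terms, and the leukocyte covariate were chosen after seeing the data. Scripts were tested on simulated data.

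The members, gene lists and named genes were chosen with earlier results of these data known. Named were core subunits of each complex, the 3 highest and 3 lowest members by slope and by SS minus NS difference, those with the widest and narrowest log2 range, and the 2 genes of highest CPM of each other list. Gene names came from the study's gene table, and all 59 matched RefSeq, which now calls ATP5B ATP5F1B, ATP5A1 ATP5F1A, ATP5G1 ATP5MC1 and ATP5G3 ATP5MC3. A member gene counted in all totals is not reported here on its own. Transcript lengths were not used here, so CPM and its sums and ratios over gene lists were compared between steers and, apart from choosing which genes are named, not between genes or lists.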

Additional observations from a re-analysis of the deposited data

Results flagged for a closer look

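Single values far from the rest of their group were sought with Dixon's test in 80 sets of values (40 quantities in NS and in SS), of which chance flags about 1 in 20, and 3 were found. NDUFS4, an accessory subunit of complex I, was at 44.5 CPM in SS 287, above 33.1 to 35.5 CPM in the other SS. The mean log2(CPM + 0.5) of the complex II genes was 5.86 in NS 242, below 6.37 to 6.41 in the other NS. The epithelial score was 6.08 in NS 242 as well, below 9.03 to 9.30 in the other NS.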

How the results depend on the processing

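The SS against NS calls were 0 members in all settings run. The members' median difference was -0.23, ranged from -0.39 to -0.10 when 1 steer was left out, was -0.061 with edgeR and -0.037 with DESeq2 (22 positive), and was 0.035 without steers 274 and 294 together, where ATP5B (0.035) and ATP5G3 (0.014) also turned positive. With 1 steer left out, the difference ranged from -0.21 to 0.33 for COX7B (negative without 242, 287 or 310), from -0.018 to 0.12 for NDUFB8 (negative without 242, 274 or 287) and from -0.16 to 0.19 for UQCRB (negative without 242 or 287). With edgeR and DESeq2 the estimates of the 3 highest and 3 lowest members moved by over 1.5 times, ATP5G3 to -0.18 and -0.16, COX7B to 0.42 and 0.44, UQCRB to 0.15 and 0.18, NDUFB8 to 0.18 and 0.21, and COX6B1 and COX7A2 to between -0.24 and -0.21. Beside the epithelial score, in fits added after seeing the data, the median ranged from -0.14 to 0.047 with 1 steer left out.

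The number of members called higher with the epithelial score was 40 (15.1% of all genes), 25 with edgeR (12.7%), 16 without steers 274 and 294 (8.54%), 0 without 242, 274 and 294 (0.0202%), 24 to 42 with 1 steer left out (9.99% to 22.1%), and 28 to 45 in the other settings (9.73% to 17.5%). The median slope of 0.16 ranged from 0.14 to 0.22 with 1 steer left out, and was 0.21 without 274 and 294 and 0.48 without 242, 274 and 294. The slope of NDUFA4 ranged from -0.066 to 0.022 with 1 steer left out (positive without 294). That of NDUFB10 ranged from -0.0065 (without 274) to 0.024, and was -0.00384 with median-of-ratios scaling, -0.00631 with DESeq2, -0.0016 with group as a covariate, -0.071 without 274 and 294 and -0.11 without 242, 274 and 294. The median slope on the smooth muscle score ranged from -0.16 to 0.053 with 1 steer left out. The cause of these changes was not tested beyond the smaller number of steers. The paper calls the NS pen-mates of the SS, but the sample titles name no pen, so no paired analysis was possible. Depth limits COX7B most, with 7 reads in steer 274.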
